A study of Mus musculus with 12 samples.

Results

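The 10 genes described here set the shape and the mass of the mitochondrial network. They are Mfn1, Mfn2 and Opa1 for fusion, Dnm1l with its adaptors Fis1, Mff, Mief1 and Mief2 for fission, and Tfam and Ppargc1b for biogenesis. They were chosen by symbol from the 34866 genes of the deposited table, each has 1 identifier there, and all 10 averaged 1 TPM or more (TPM is a level scaled to transcript length and library size) over the 12 libraries. Polyadenylated RNA was sequenced from mouse embryonic fibroblasts (MEFs) in 4 groups of 3 libraries, WT and KO of either sex. WT cells came from 129S1/SvImJ embryos and KO cells from Sirt3-/- embryos, which lack the mitochondrial deacetylase Sirt-3, and the comparison asks what loss of Sirt-3 does in each sex. Embryos were 13 days old and were kept and sexed singly, and all 4 groups were immortalized with SV40 T-antigen, held at passage 6 and collected 48 h after seeding. The number of lines per group is not given in the sources used here, and cultures were seeded in triplicate. If each group is 1 line, then its line cannot be told apart from its genotype and sex, and p-values measure only the spread between its cultures. The methods list separate stocks for WT and KO mice, so stock cannot be told apart from genotype whatever the number of lines.

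Mitochondria fuse and divide continuously. The mitofusins Mfn1 and Mfn2 are GTPases that join outer membranes, and Opa1 joins inner membranes and shapes the cristae. Division is carried out by the GTPase Drp1, product of Dnm1l, which is recruited from the cytosol by the outer membrane proteins Mff, Fis1, MiD51 (Mief1) and MiD49 (Mief2). Much of this machinery is controlled after transcription, for example by proteolytic cleavage of Opa1 and phosphorylation of Drp1, which mRNA levels do not show. Tfam packages and transcribes mitochondrial DNA, and Ppargc1b encodes the coactivator PGC-1beta, which works with nuclear factors such as NRF-1 and GABP on genes of mitochondrial biogenesis.

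The promoters below are shown because they hold the letters that NRF-1 and GABP are known to bind, and the mRNA of both factors was measured in the same libraries. Each is the 250 bases before the RefSeq start on GRCm38.p6, 5′ to 3′ on the strand of the gene, with capitals for TGCGCA (the NRF-1 half-site) and for CCGGAAG or its reverse complement (the ETS core bound by GABP). Fis1 lies at chr5:136953025-136953274 on the plus strand, Opa1 at chr16:29579084-29579333 on the plus strand, and Polrmt, the mitochondrial RNA polymerase that is described with the wider gene lists, at chr10:79746582-79746831 on the minus strand.
Fis1: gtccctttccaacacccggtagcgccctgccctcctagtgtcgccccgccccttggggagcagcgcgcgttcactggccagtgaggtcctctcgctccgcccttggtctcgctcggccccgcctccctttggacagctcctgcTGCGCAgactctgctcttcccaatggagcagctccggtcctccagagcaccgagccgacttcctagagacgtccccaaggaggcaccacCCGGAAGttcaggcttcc
Opa1: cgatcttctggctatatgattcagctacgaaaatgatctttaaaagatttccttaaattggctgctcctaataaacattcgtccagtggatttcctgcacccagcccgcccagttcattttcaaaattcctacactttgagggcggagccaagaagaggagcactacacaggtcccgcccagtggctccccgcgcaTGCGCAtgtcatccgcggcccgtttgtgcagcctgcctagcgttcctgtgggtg
Polrmt: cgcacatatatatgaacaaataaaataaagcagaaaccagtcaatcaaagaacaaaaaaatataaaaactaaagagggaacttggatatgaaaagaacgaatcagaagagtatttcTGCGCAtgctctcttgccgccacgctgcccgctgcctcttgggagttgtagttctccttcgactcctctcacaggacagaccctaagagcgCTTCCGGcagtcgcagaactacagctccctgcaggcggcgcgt
Searched on both strands over 300 bases, from 250 before to 50 after the start, TGCGCA was present in 7.76% of 32851 RefSeq promoters and in those of 3 members (Opa1, Fis1 and Mief2), and CCGGAAG in 8.86% and in those of 5 members (Mfn1, Dnm1l, Fis1, Mief1 and Tfam). A window was listed for 9 of the 10 members, and the 2 motifs share no overlap in the sequences printed. The percentages count single windows, whereas a member was counted if any of its windows, up to 3, held the letters. The member counts are therefore not on the same scale as the percentages. Nrf1 stood between 38.7 and 57.7 TPM and Gabpa between 33.4 and 43.5 TPM in the 12 libraries. Neither passed the test between KO and WT, with an adjusted p of 0.398 in males and 0.399 in females for Nrf1, and of 0.246 and 0.912 for Gabpa (limma with Benjamini-Hochberg adjustment). A match is a description of letters and not a site in use.

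None of the 10 members passed the test in any comparison. Differences were tested with limma on log2(TPM+1), with p-values adjusted over the 12504 genes that averaged 1 TPM or more, and a gene was called at an adjusted p under 0.05. In males, 21.6% of all tested genes were called between KO and WT and 0 of 10 members, and in females 11.5% and again 0 of 10. Before adjustment, 1 member (Mff) had a p under 0.05 in males and 4 members (Mfn1, Mief1, Mief2 and Ppargc1b) in females. The sex by genotype interaction, which asks whether the change with KO differs between sexes, called 13.0% of all genes and 0 members, of which 3 (Mfn1, Mief1 and Ppargc1b) had an unadjusted p under 0.05. Male WT against female WT called 12.8% of genes, male KO against female KO 16.6%, and KO against WT disregarding sex 12.3%, with 0 members in each. Unadjusted p-values under 0.05 were found there for 3, 0 and 0 members. The median size of the difference was 0.13 for the members and 0.17 for all tested genes in males, and 0.10 and 0.13 in females, in log2 units and without sign. In the interaction it was larger for the members, at 0.21 against 0.17.

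The precision of these comparisons differed between members. The 95% interval of the difference was taken for each gene alone, on the scale of TPM+1. It lay within 1.5-fold in either direction for 9 members in males, all but Ppargc1b. In females it did so for 6 members, all but Mfn1, Mief1, Mief2 and Ppargc1b. A change below that size was not excluded for any of them by its failure to pass the test. In bulk RNA, fewer cells of a type and less RNA per cell cannot be told apart.

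**Figure D1:**
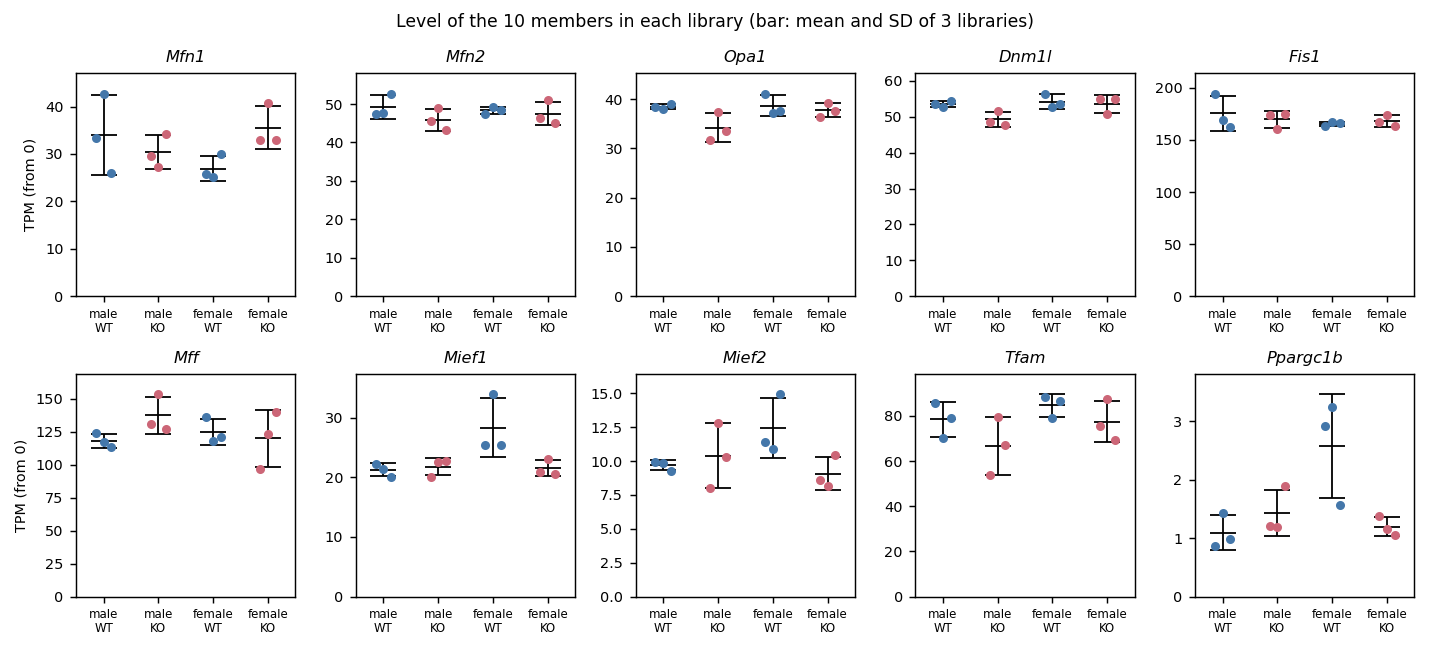
Level of each of the 10 members in TPM on an axis from 0 for the 12 libraries, with 1 point per library and a bar for the mean and SD of the 3 libraries of each group. Fis1 stood near 170 TPM in all 4 groups, and Mief1 and Ppargc1b were highest in female WT.

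Among the fusion genes, Mfn2 and Opa1 varied little. Mfn2 (chromosome 4, 147873599 to 147904704) ranged from 43.2 to 52.7 TPM over the 12 libraries. Its log2 difference between KO and WT was -0.097 in males (95% interval -0.26 to 0.067) and -0.026 in females (-0.16 to 0.11). Opa1 (chromosome 16, 29579334 to 29654884) was at 38.4, 37.9 and 39.0 TPM in the male WT libraries and at 31.6, 37.4 and 33.5 in the male KO. All 3 male KO libraries were thus below the male WT, the nearest pair being 37.4 and 37.9 TPM. The log2 difference was -0.17 (95% interval -0.34 to 0.00039, adjusted p = 0.143 by limma). Without male KO replicate 2, the highest of its group, it was -0.23 and the adjusted p was 0.0458, so 1 library decides this call. In females Opa1 stood at 41.1, 37.3 and 37.7 TPM in WT and at 36.4, 39.3 and 37.6 in KO, and the groups overlapped, with a difference of -0.033 (-0.17 to 0.11).

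Mfn1 (chromosome 3, 32529465 to 32579239) had the largest difference of the 3 fusion genes in females, though not in males. Female WT libraries held 25.8, 25.1 and 29.9 TPM and female KO libraries 32.9, 40.8 and 32.9. Every female KO library was above every female WT library. The log2 difference was 0.38 (95% interval 0.13 to 0.64, adjusted p = 0.0684 by limma), the smallest adjusted p of any member in any of the 6 comparisons. Male WT libraries held 33.4, 42.8 and 25.9 TPM and male KO libraries 29.6, 27.2 and 34.2. The male WT libraries alone spanned the whole male KO range, and the male difference was -0.14 (-0.55 to 0.28, adjusted p = 0.630). The difference between the sexes' changes was -0.52 (-1.02 to -0.029, adjusted p = 0.171). Without male WT replicate 3, the lowest of its group, it was -0.70 with an adjusted p of 0.0381, so that call too rests on 1 library. As a share of both mitofusin transcripts, Mfn1 made up 33.8% to 38.2% in female WT and 41.5% to 44.5% in female KO, against 32.9% to 47.3% in male WT and 35.8% to 44.2% in male KO.

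The dynamin gene Dnm1l (chromosome 16, 16312230 to 16358959) was among the least variable members. It was at 53.6, 52.7 and 54.5 TPM in male WT and at 48.5, 51.5 and 47.7 TPM in male KO. The male groups did not overlap, and the log2 difference was -0.12 (95% interval -0.24 to 0.0015, adjusted p = 0.147 by limma). In females the levels were 56.5, 52.6 and 53.6 TPM in WT and 55.1, 50.7 and 55.0 TPM in KO. These overlapped, with a difference of -0.017 (-0.14 to 0.11). Genes that are not listed in the table are annotated on the opposite strand at both Dnm1l and Mff. Without a stated strand setting, reads from the stretches they share with the members cannot be told apart. At Mff, which starts at 82724890, the shared stretch is short, as the opposite gene ends at 82725169.

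Of the adaptors, Fis1 (chromosome 5, 136953275 to 136966234) was the most abundant, and its group means lay closest together. Its levels ran from 161 to 195 TPM, and its highest group mean was only 1.06 times its lowest, against a median of 1.25 for all tested genes. The log2 difference was -0.043 in males (95% interval -0.22 to 0.13) and 0.022 in females (-0.060 to 0.10). Mff (chromosome 1, 82724890 to 82752394), the adaptor best known for recruiting Drp1 in mammalian cells, was at 124, 117 and 113 TPM in male WT and at 131, 154 and 127 TPM in male KO. The male groups did not overlap, and the difference of 0.21 (0.027 to 0.39) had an adjusted p of 0.103 by limma, the smallest of the members in males. Without male KO replicate 2, the library at 154 TPM, it was 0.13 (adjusted p = 0.154). Female WT libraries held 136, 118 and 121 TPM and female KO libraries 96.9, 123 and 140, so the KO libraries reached both below and above the WT. The female difference was -0.071 (-0.39 to 0.24), and the interaction 0.28 (-0.084 to 0.64, adjusted p = 0.332).

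Mief1 and Mief2, which encode the paired MiD adaptors, were highest in female WT. Mief1 (chromosome 15, 80234018 to 80253371) was at 25.5, 34.0 and 25.4 TPM in the female WT libraries, and all other libraries lay between 20.1 and 23.1 TPM. Every female WT library was therefore above the other 9. The log2 difference between female KO and female WT was -0.37 (95% interval -0.66 to -0.078, adjusted p = 0.105 by limma), against 0.033 in males (-0.15 to 0.22). The difference of male WT from female WT was -0.38 (-0.67 to -0.10, adjusted p = 0.0862). These comparisons share the female WT libraries. When all 12 libraries were fitted together and shared 1 estimate of the spread, Mief1 was called in both, with adjusted p-values of 0.0403 and 0.0296. Without female WT replicate 2, the library at 34.0 TPM, the differences were -0.23 (adjusted p = 0.145) and -0.25 (adjusted p = 0.108), so 1 library moves both by over 1.5 times.

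Mief2 (chromosome 11, 60728398 to 60732951) was at 11.4, 10.9 and 15.0 TPM in female WT and at 8.58, 8.16 and 10.4 TPM in female KO. Female WT and female KO did not overlap, and the log2 difference was -0.41 (95% interval -0.76 to -0.064, adjusted p = 0.126 by limma). In males the levels were 9.96, 9.82 and 9.26 TPM in WT and 8.04, 12.8 and 10.3 TPM in KO, where KO libraries lay on both sides of the WT, with a difference of 0.071 (-0.30 to 0.44). Male KO replicate 2 was above 2 of the 3 female WT libraries, so the female WT libraries did not stand above all others as they did for Mief1.

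The balance of the fission genes to one another was also read within each library. Fis1 made up 51.8% and Mff 38.0% of the summed TPM of the 4 adaptors on average, and Mief1 7.08% and Mief2 3.16%. The summed adaptors exceeded Dnm1l by 6.78 to 7.03 times in male KO, 5.61 to 6.54 times in male WT, 5.95 to 6.27 times in female WT and 5.33 to 6.48 times in female KO. The 3 male KO libraries held the highest values of this ratio. It joins Mff and Dnm1l, the members whose male groups moved in opposite directions, and was formed after their values were seen, so no test is given.

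Tfam (chromosome 10, 71225464 to 71238280) was at 85.8, 70.3 and 79.1 TPM in male WT and at 53.6, 79.3 and 66.9 TPM in male KO. The groups overlapped because of male KO replicate 2, and the log2 difference was -0.25 (95% interval -0.58 to 0.090, adjusted p = 0.270 by limma). It was -0.10 without male KO replicate 1 and -0.38 without replicate 2, and passed in neither case. Female WT libraries held 88.5, 78.9 and 86.6 TPM and female KO libraries 75.5, 87.5 and 69.5. These overlapped as well, with a difference of -0.13 (-0.34 to 0.083, adjusted p = 0.401). Disregarding sex, the difference was -0.19 (-0.41 to 0.029, adjusted p = 0.247). The 13 protein-coding genes of mitochondrial DNA, whose transcription Tfam drives, made up 3.32% ± 0.182 of all TPM in male WT, 3.47% ± 0.215 in male KO, 3.58% ± 0.217 in female WT and 3.57% ± 0.111 in female KO (SD, n = 3 each).

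Ppargc1b (chromosome 18, 61298136 to 61400431) was the scarcest member, and its relative spread was the widest. Its levels were 0.856, 1.42 and 0.992 TPM in male WT, 1.21, 1.18 and 1.88 TPM in male KO, 2.92, 3.24 and 1.57 TPM in female WT and 1.38, 1.16 and 1.05 TPM in female KO. Female WT replicates 1 and 2 stood above all other libraries, while replicate 3 lay among the male KO values. The log2 difference was -0.67 in females (95% interval -1.21 to -0.14, adjusted p = 0.107 by limma) and 0.21 in males (-0.27 to 0.69, adjusted p = 0.511), and the interaction was 0.88 (0.21 to 1.56, adjusted p = 0.0878). Without female WT replicate 3 the female difference was -0.90 with an adjusted p of 0.0430 and the interaction 1.11 with 0.0253. The difference of male WT from female WT was -0.75 (-1.32 to -0.19, adjusted p = 0.0907). It was -0.97 without that library (adjusted p = 0.0390), and with all 12 libraries in 1 fit its adjusted p was 0.0374. At 1 to 3 TPM, and with read totals unknown, the counting error of these values cannot be given. The scale of log2(TPM+1) also understates folds at this level. The female group means were 2.58 TPM in WT and 1.20 TPM in KO. Over the alternative analyses the female difference ran from -0.99 to -0.53. Ppargc1a, the better known paralog of Ppargc1b, was at 0.231 to 1.39 TPM.

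**Figure D2:**
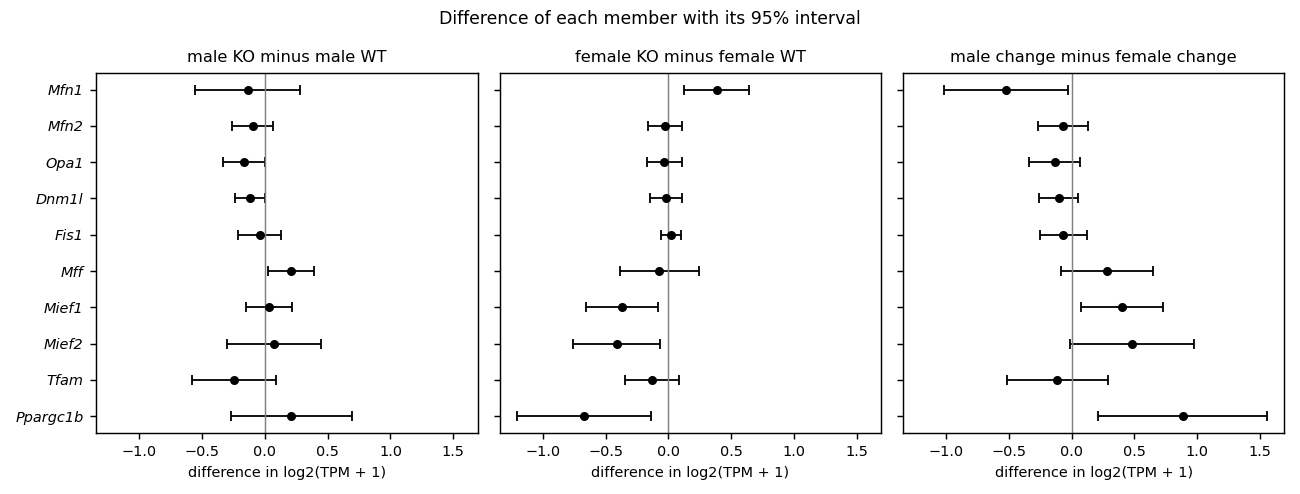
Difference in log2(TPM + 1) of each member between male KO and male WT, between female KO and female WT, and between these changes, with the 95% interval from limma. No difference passed an adjusted p of 0.05, and the widest intervals are those of Ppargc1b.

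A separation of the KO and WT libraries was common in these data and did not set the members apart. In males 3 of the 10 members had groups that did not overlap (Mff higher, Opa1 and Dnm1l lower in KO), against 40.0% of all tested genes. In females there were 4 (Mfn1 higher, Mief1, Mief2 and Ppargc1b lower in KO), against 33.6%. Male WT and female WT did not overlap for 3 members, all lower in male WT, against 33.4% of genes. Male KO and female KO overlapped for all 10, while 35.4% of genes did not.

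Other genes of the same pathways did pass the test. Of 79 genes listed for OPA1 processing, other fusion and fission factors, transport along microtubules, cristae, biogenesis and maintenance of mitochondrial DNA, 74 were tested. In males 10 passed, 3 higher and 7 lower in KO, which is 13.5% beside 21.6% of all genes. In females 8 passed, 3 higher and 5 lower, or 10.8% beside 11.5%. The interaction called 2 (2.70% beside 13.0%), male against female WT 1 (1.35% beside 12.8%) and male against female KO 5 (6.76% beside 16.6%). KO against WT disregarding sex called 12, 4 higher and 8 lower, the one comparison in which their share was above that of all genes (16.2% beside 12.3%). Whether it was above depended on the setting. With the replicate number as a block, 5 of the 74 were called beside 9.08% of all genes, a lower share. With sex as a covariate, 17 of the 74 were called beside 21.0%, a higher share. The median log2 difference of the 74 genes was -0.017 in males and -0.039 in females, and that of all tested genes -0.015 and -0.023.

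**Figure D3:**
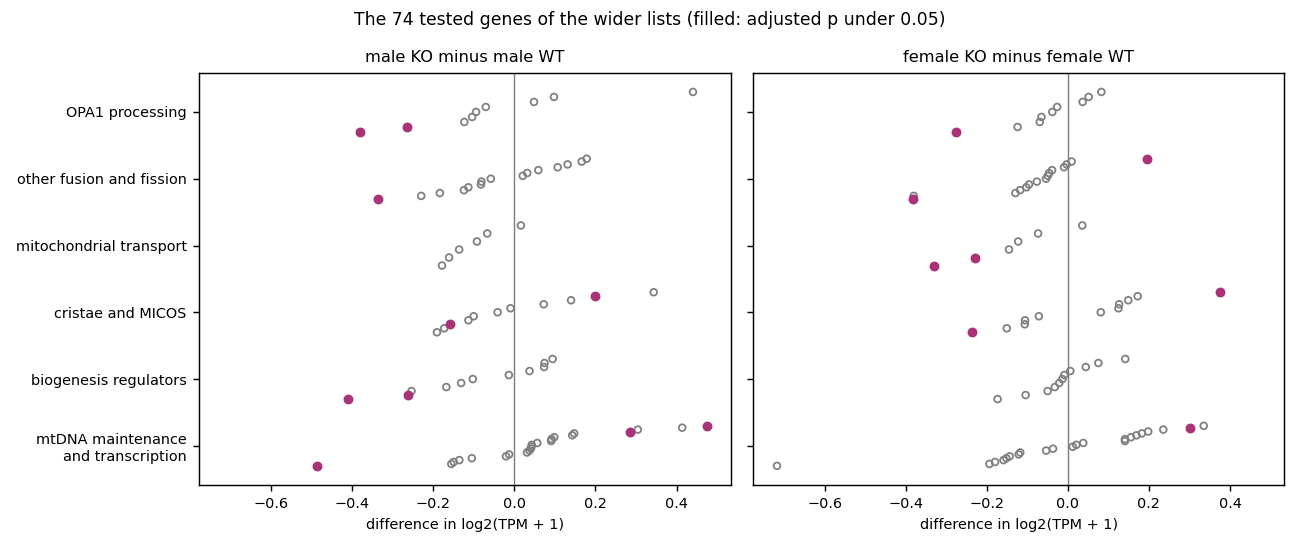
Difference in log2(TPM + 1) between KO and WT of the 74 tested genes of 6 wider lists, in males and in females, with 1 point per gene. Filled points have an adjusted p under 0.05, 10 in males and 8 in females.

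Of 9 tested genes for inner membrane proteins that scaffold and process OPA1, 2 fell in males, 1 fell in females and none rose, beside 21.6% and 11.5% of all genes called in either direction, which is about the share of all genes. Stoml2 encodes SLP-2, which stabilizes long OPA1. It was at 214, 201 and 207 TPM in male WT and at 162, 167 and 149 TPM in male KO, and it fell by 0.38 (log2, adjusted p = 0.00281 by limma). In females it was at 197, 200 and 209 TPM in WT and at 166, 183 and 152 TPM in KO, a fall by 0.28 (adjusted p = 0.0453). Every KO library of either sex was below every WT library. Phb2, a prohibitin of the ring complex that guards OPA1 from cleavage, was at 465, 470 and 479 TPM in male WT and at 391, 402 and 385 TPM in male KO, and it fell by 0.26 (adjusted p = 0.00149). Female levels were 457, 444 and 444 TPM in WT and 459, 426 and 424 TPM in KO, and they overlapped. The proteases Yme1l1 and Oma1, which cut OPA1, did not pass, with adjusted p-values of 0.551 and 0.200 in males and 0.430 and 0.859 in females.

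**Figure D4:**
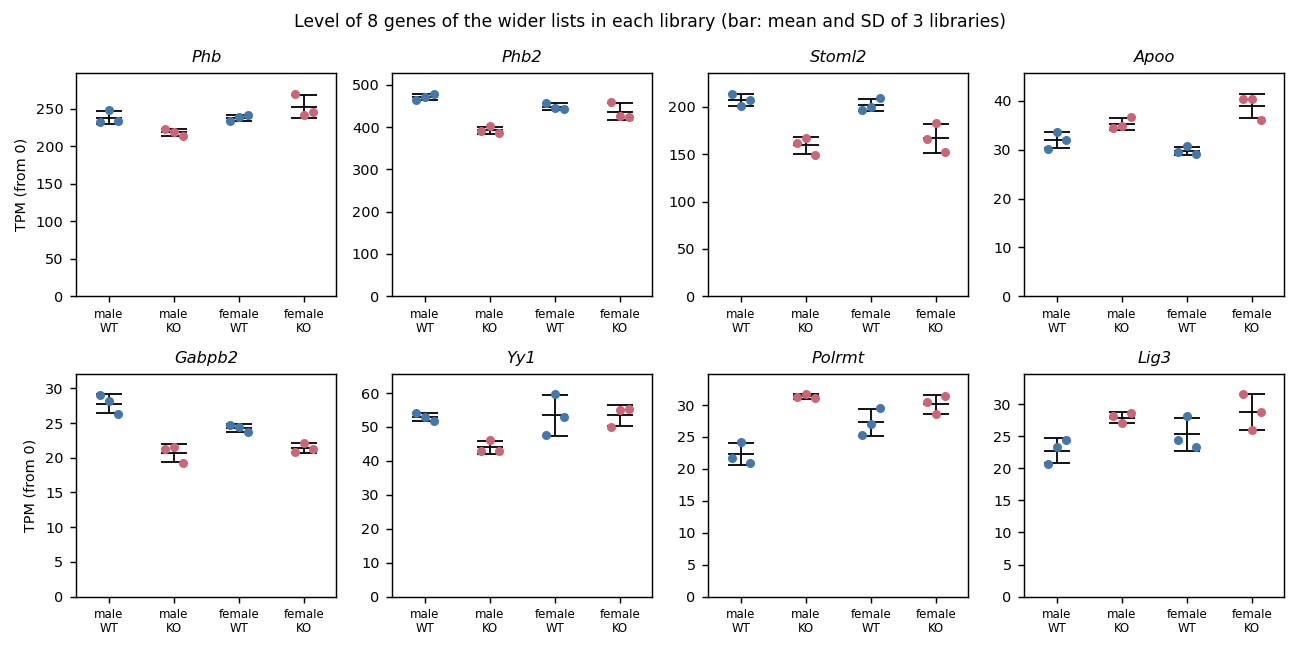
Level of 8 genes of the wider lists in TPM on an axis from 0 for the 12 libraries, with a bar for the mean and SD of 3 libraries. All 3 male KO libraries were below all male WT libraries for Phb, Phb2, Stoml2, Gabpb2 and Yy1, and above them for Apoo, Polrmt and Lig3. These 8 genes were chosen after their values were seen, and 40.0% of all tested genes did not overlap between male KO and male WT.

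Among biogenesis regulators, 2 of 11 tested genes fell in males, beside 21.6% of all genes called, and 0 passed in females, beside 11.5%. Gabpb2, a subunit of GABP, was at 29.0, 28.2 and 26.3 TPM in male WT and at 21.2, 21.6 and 19.3 TPM in male KO, and it fell by 0.41 (log2, adjusted p = 0.00898 by limma). Female WT libraries held 24.7, 24.5 and 23.7 TPM and female KO libraries 20.9, 22.2 and 21.2, so the female groups lay apart in the same direction. Yy1, a zinc finger factor that works with PGC-1 coactivators, was at 54.0, 52.8 and 51.8 TPM in male WT and at 42.9, 46.2 and 42.8 TPM in male KO, and it fell by 0.26 (adjusted p = 0.0140). Neither male group pair overlapped. The female groups overlapped for Yy1. The interaction called 0 of the 11 genes, beside 13.0% of all genes, which does not show that both sexes changed alike. Disregarding sex, Gabpb2 was lower in KO by 0.29 (adjusted p = 0.00764 by limma) and passed in each of 20 alternative analyses.

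In maintenance and transcription of mitochondrial DNA, 3 of 22 genes passed in males and 1 in females, lower shares than the 21.6% and 11.5% of all genes. Polrmt rose in males by 0.47 (log2, adjusted p = 0.00433 by limma), from 21.8, 24.3 and 20.9 TPM in WT to 31.2, 31.8 and 31.1 TPM in KO. Female WT libraries, at 25.3, 27.0 and 29.5 TPM, lay between these male groups. Female KO libraries held 30.4, 28.5 and 31.4 TPM and overlapped the female WT, with a higher mean (30.1 against 27.3 TPM). The interaction called 0 of the 22 genes, beside 13.0% of all genes, which again does not show that both sexes changed alike. Disregarding sex, Polrmt was higher in KO by 0.31 (adjusted p = 0.0195 by limma). Lig3, the ligase of mitochondrial DNA, rose by 0.29 in males (adjusted p = 0.0407), and Rrm2b, a subunit of ribonucleotide reductase, fell by 0.49 (adjusted p = 0.0362). Top1mt, the mitochondrial topoisomerase, rose by 0.30 in females (adjusted p = 0.0277). Of the 13 genes encoded in mitochondrial DNA, mt-Co3 rose by 0.37 (adjusted p = 0.0274) and mt-Atp8 fell by 0.47 (adjusted p = 0.0213) in males, and 0 passed in females.

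Of 11 cristae genes, 2 passed in each sex, 1 higher and 1 lower in KO. Of all tested genes, 21.6% passed in males and 11.5% in females. In males Minos1 rose by 0.20 (log2, adjusted p = 0.0435 by limma) and Immt, the core of the MICOS complex, fell by 0.16 (adjusted p = 0.0457), out of 11. Female KO cells had higher Apoo, another MICOS subunit, by 0.37 (adjusted p = 0.0136), at 29.5, 30.8 and 29.2 TPM in WT and 40.5, 40.4 and 36.0 TPM in KO, and Dnajc11 fell by 0.24 (adjusted p = 0.0497). Of 15 other fusion and fission factors, 1 passed in males and 2 in females, beside the same shares of all genes. Mtfr2 fell by 0.34 in males (adjusted p = 0.0376). In females Inf2, a formin that acts at sites of division, rose by 0.19 (adjusted p = 0.0188) and Miga1, a fusion factor of the outer membrane, fell by 0.38 (adjusted p = 0.0375). Of 6 transport genes, 0 passed in males and 2 in females, beside 21.6% and 11.5% of all genes. Rhot2 and Kif1b, a Miro GTPase and a kinesin, fell in females by 0.33 (adjusted p = 0.0258) and 0.23 (adjusted p = 0.0211). Between male and female WT, 2410015M20Rik was 0.27 higher in males (adjusted p = 0.0453). Phb, Phb2, Miga2, Yy1 and Dguok were the 5 genes lower in male KO than in female KO. These calls between the sexes were not stable. Of 14 alternative analyses, Yy1 passed in 8, Phb, Dguok and 2410015M20Rik in 6, Miga2 in 5 and Phb2 in 4.

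How far these calls held depended on the gene. Phb2, Stoml2, Polrmt and Gabpb2 passed in males in each of 14 alternative analyses, 6 of which left out a library. Yy1 passed in 13 of 14. The other male calls of the wider lists held less often, with Mtfr2 passing in 7 of 14, Minos1 and Rrm2b in 6, Lig3 in 5 and Immt in 3. Each of these 5 passed in at most 1 of the 6 that left out a library. Of the genes encoded in mitochondrial DNA, mt-Atp8 passed in males in 9 of 14 and mt-Co3 in 7. They passed in 3 and 1 of the 6 that left out a library. Of the 8 genes called in females none passed in all 14. Apoo passed in 10 of 14, but in only 2 of the 6 that left out a library, and Stoml2 in 5 of 14. Disregarding sex, the log2 difference was -0.33 for Stoml2 (adjusted p = 0.000949 by limma), 0.26 for Apoo (0.0104) and -0.31 for Miga1 (0.0186). Each of them, like Gabpb2 and Polrmt, passed there in all 20 alternative analyses. The other genes of the wider lists called there passed in 5 to 10 of 20.

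Some features of the libraries moved with the groups, and their part in these results was not tested. Sirt3 mRNA was at 7.61 ± 1.30 TPM in male WT, 10.3 ± 1.19 in male KO, 7.90 ± 0.695 in female WT and 8.27 ± 0.749 in female KO libraries (SD, n = 3 each), so the level of the whole gene does not show the knockout, and KO here means the label. Kdm5d, Ddx3y and Eif2s3y, on the Y chromosome, were high in all 6 male and low or at 0 in all 6 female libraries. Of 11 fibroblast markers, 10 had a mean of at least 1 TPM and 1 (Lum) was under 1 TPM in every library, and their sum was 8194 to 8338 TPM in female WT, 10251 to 11369 in male WT, 10417 to 10676 in female KO and 12390 to 13093 in male KO. The 4 kidney lineage markers summed to 40.4 to 47.7 TPM in male KO, chiefly Pax8, and to at most 7.70 TPM elsewhere. The 7 epithelial markers summed to 9.72 to 10.6 TPM in male WT, 0.603 to 1.26 in male KO, 6.41 to 7.66 in female WT and 1.93 to 2.25 in female KO, and 5 of them were under 1 TPM in every library. The 3 mesothelial markers summed to 27.9 to 33.0, 4.77 to 7.49, 14.5 to 17.5 and 5.53 to 6.60 TPM in the same order, and the 3 neural markers to 72.7 to 78.4, 51.8 to 54.2, 93.7 to 95.6 and 62.7 to 72.6 TPM. Single markers went against these sums, as Wt1 rose in male KO by 1.25 (log2, adjusted p = 0.00592 by limma) and Sox2 in female KO by 1.19 (adjusted p = 0.00151), and Tubb3 rose in male KO by 0.34 (adjusted p = 0.0350). The fibroblast marker S100a4 fell in male KO by 0.23 (adjusted p = 0.00936), where 4 of the 10 tested fibroblast markers rose. In female KO 8 of the 10 rose, S100a4 among them. Of all tested genes, 21.6% were called in males and 11.5% in females, in either direction. Female WT libraries, where Mief1 was highest, also had the highest sums of skeletal muscle markers, at 5.71 to 6.60 TPM against at most 0.344 elsewhere. Their endothelial markers summed to 4.72 to 5.76 TPM against at most 2.25. Each of these sums was chiefly 1 gene, Des and Kdr. The other 2 of 3 muscle markers and 3 of 4 endothelial markers were under 1 TPM in every library. Of 7 proliferation genes, Ccnb1 and Ccna2 fell in male KO, and in female KO Ccnb1 fell and Mcm2 rose, beside the same shares of all genes. The 5 adipocyte markers summed to 15.7 to 16.8 TPM in male WT, 11.5 to 12.1 in male KO, 4.92 to 7.12 in female WT and 6.48 to 7.37 in female KO, and 5 haematopoietic markers to 4.18 to 11.4 TPM over all libraries.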

How the data were processed

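Polyadenylated RNA of 12 cultures was sequenced as paired reads. The authors quantified reads with Salmon (1.10.1 in the submitters' processing notes) on GRCm38 and deposited TPM per gene, with versioned Ensembl identifiers. The annotation release and the strand setting are not given in the sources used here. TPM hold no read totals, so depth is unknown and no counting error is given. Symbols and positions came from GENCODE for GRCm38 (99.2% of identifiers matched), and promoter sequences from RefSeq (GRCm38.p6).

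The 12504 genes averaging 1 TPM or more were tested on log2(TPM+1) by limma 3.58.1 in R 4.3.3, allowing a mean-variance trend, so folds of low genes are understated. P-values were two-sided and adjusted after Benjamini and Hochberg over all of them, and genes were called at 0.05 with no fold threshold. Comparisons of 2 groups used their 6 libraries, and the interaction and KO against WT disregarding sex used all 12. The code was tested on simulated data. Alternatives were a pseudocount of 0.1, no filter, a filter at 5 TPM, quantile normalization, median-of-ratios scaling, no trend, the replicate number as a block, all 12 libraries in 1 fit, sex as a covariate, and leaving out each library.

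The members and the wider and marker lists were chosen with earlier results of these data known. Genes of the wider lists were named where called in males, females or the interaction, at most 5 per list and comparison. Nrf1, Gabpa, Ppargc1a, Yme1l1 and Oma1, the genes called between the sexes, and the genes plotted by library were chosen after their values were seen.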

Additional observations from a re-analysis of the deposited data

Results flagged for a closer look

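The change of the prohibitins with KO differed between the sexes by the interaction test of limma over 12 libraries, which tests the difference itself. Phb2 had an interaction of -0.23 (log2, adjusted p = 0.00874), with a fall by 0.26 in males, and passed in each of 19 alternative analyses. Its partner Phb had an interaction of -0.21 (adjusted p = 0.0491) and passed in 4 of the 19, so its call was close to the threshold. Phb was at 233, 248 and 234 TPM in male WT, 222, 219 and 213 TPM in male KO, 234, 238 and 242 TPM in female WT and 270, 241 and 246 TPM in female KO. The male KO libraries were the lowest of the 12 for both genes. The interaction called 13.0% of all tested genes.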

How the results depend on the processing

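The count of members called was 0 in 88 of 95 combinations of comparison and alternative. It was 1 between female KO and female WT (Mief1) and 2 between male WT and female WT (Mief1 and Ppargc1b) with all 12 libraries in 1 fit. Leaving out 1 library gave 0 to 1 members in males (Opa1, without male KO replicate 2), in females (Ppargc1b, without female WT replicate 3), in the interaction (Mfn1 without male WT replicate 3, Ppargc1b without female WT replicate 3) and between male and female WT (Ppargc1b, without female WT replicate 3). A mean of at least 5 TPM left 9 members tested, without Ppargc1b. No member was called with the replicate number as a block (0 in each of 6 comparisons). The replicate numbers did not pair the libraries: the correlation of same-numbered deviations ran from -0.057 to 0.078, and 0 to 2 of 6 libraries per comparison correlated best with their own number. Under that block the wider lists gave 6 calls in place of 10 in males and 1 in place of 8 in females. Calls in the wider lists ran from 6 to 16 in males, 1 to 8 in females and 1 to 6 in the interaction over alternatives that kept all libraries, and from 4 to 6, 0 to 3 and 1 to 3 without 1 library, where fewer libraries were fitted. Over all alternatives, those without 1 library included, they ran from 0 to 7 between male and female WT, from 0 to 5 between male and female KO, and from 5 to 17 disregarding sex.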
